A study of Mus musculus with 18 samples.

Results

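The 10 libraries described here come from glutamine-treated mice: 5 from adipose tissue and 5 from bone marrow, of 18 libraries in the series. They were taken as the 5 columns marked GLN in each tissue's count table. The other 8 libraries, 4 of each tissue, come from the arm without glutamine and serve below only as separate samples of the same tissues. All 18 samples are from male C57BL/6J mice, an inbred strain, and both arms carry the description HFD, so every mouse in both groups compared here shares that label as well as the glutamine treatment. Sample titles read mAT-MSC VAT for adipose and mBMSC for bone marrow, and the series title concerns glutamine, skeletal strength and fitness in obese mice. The labels give no age, glutamine dose, treatment time, cell isolation or culture step. The labels do not say what the number pairs in the titles (4_6, 10_12 and so on) stand for, or that libraries came from separate animals, so p-values here measure only how much these samples vary, and that variation may be technical. The number pair of 1 marrow GLN column matches no title, and that column is called the unnumbered library. Tissue, any isolation step and the count table go together, so their contributions cannot be told apart.

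Stromal cells of fat and of marrow both belong to the mesenchymal lineage, but they are known for different tasks. Fat stroma holds progenitors that renew adipocytes and sits among vessels, macrophages and, in visceral depots, a mesothelial covering. Marrow stroma lies against bone and blood-forming cells, makes bone and cartilage matrix, and supplies the chemokine CXCL12 that holds blood stem cells in place.

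The marrow libraries were thinner in every measure. Adipose libraries 4_6, 10_12, 13_15, 18_20 and 25_27 held 41926880, 59529238, 51280504, 48078583 and 47212423 counts. Marrow libraries 4_6, 10_12, unnumbered, 18_20 and 25_27 held 23232709, 13970788, 16882030, 31195177 and 30748865 counts. Genes with at least 100 counts numbered 12385, 14469, 12897, 12928 and 12989 in adipose and 3636, 3013, 1831, 7323 and 3683 in marrow. The highest marrow library lay below the lowest adipose library. The mean difference was 9236 genes (exact permutation test, two-sided, p = 0.00794, the smallest p that 5 against 5 libraries allow). It was 6385 genes with every library thinned to the shallowest total, with the same p. The 10 most abundant genes took 10.4% ± 0.83 (SD, n = 5) of adipose counts and 22.4% ± 6.54 (SD, n = 5) of marrow counts, again without overlap and with the same p. Col1a1, the main collagen chain of bone, led every marrow library with 9.07%, 13.8%, 13.4%, 15.8% and 6.18% of counts. Gsn, an actin-severing protein, led 4 adipose libraries and Timp2, a protease inhibitor, led 13_15, with no gene above 2.15%.

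**Figure D1:**
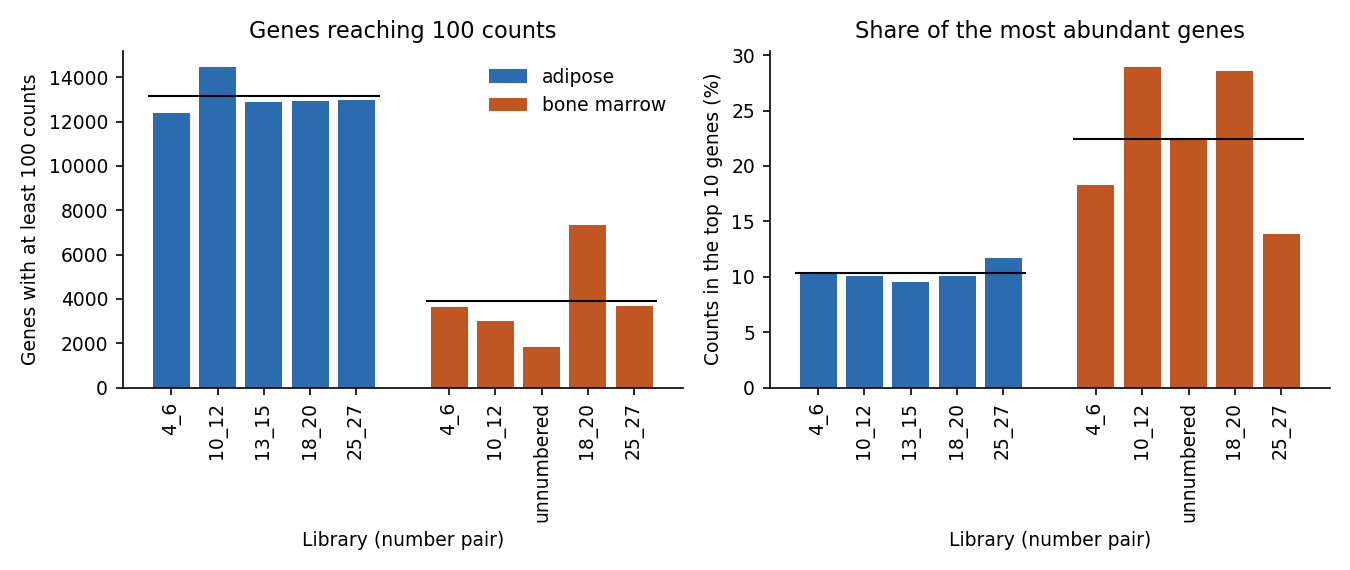
Bars give, for each of the 5 adipose and 5 bone marrow libraries, the number of genes with at least 100 counts (left) and the share of counts in the 10 most abundant genes in percent (right), and black lines mark tissue means. Marrow libraries reach 1831 to 7323 genes against 12385 to 14469 in adipose.

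Marrow libraries also resembled each other less. Over the genes tested, log-scale levels correlated between pairs of adipose libraries with r of 0.870 to 0.919 and between pairs of marrow libraries with r of 0.361 to 0.471, given as a description across genes. A count of 100 was reached in all 5 libraries by 10264 genes in adipose and 558 in marrow, and in exactly 1 library by 3041 and 3912 genes. Of the 558 marrow genes, 542 also reached 100 counts in all 5 adipose libraries and 6 in none. Whether a gene was seen in marrow followed its adipose level. CPM are a gene's counts-per-million of the library total. Of 86 genes at 1000 CPM or more in adipose, 88.4% reached 100 counts in all 5 marrow libraries. Of the 7230 genes at 10 to 100 CPM, 1.6% did so and 25.9% reached it in no marrow library. Many marrow values therefore lie either well above 10 CPM or close to 0 within the same group of 5.

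**Figure D2:**
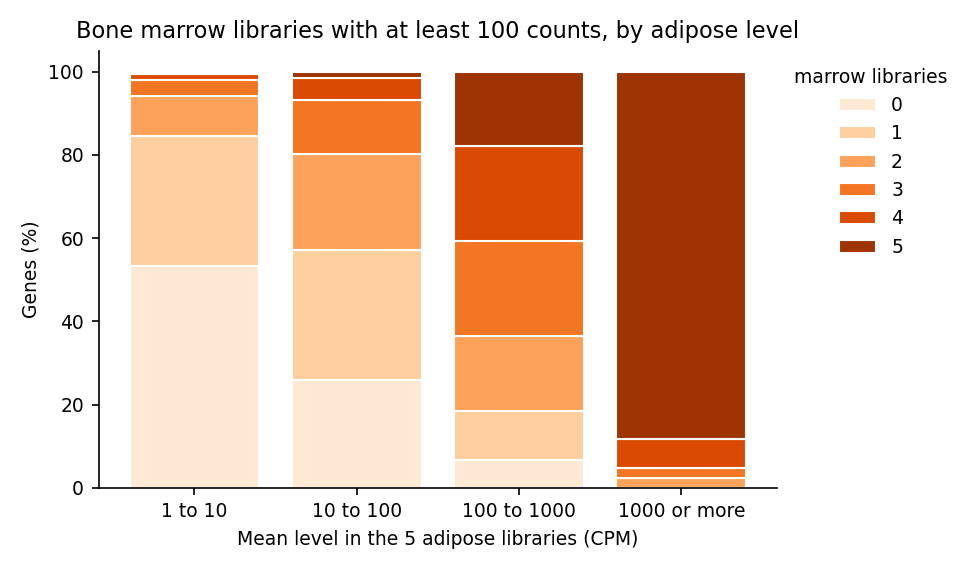
Stacked bars give the percentage of genes reaching 100 counts in 0 to 5 marrow libraries, for genes binned by their mean CPM in the 5 adipose libraries. The share seen in all 5 falls from 88.4% in the highest bin to 0.642% in the lowest.

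A near-constant low level lay under the absent genes. For the 1092 genes with an adipose mean of at least 20 CPM and under 100 counts in every marrow library, the marrow mean was a median 0.466% of the adipose mean (interquartile range 0.370% to 0.611%). The same median was 0.364% to 0.641% in single marrow libraries. In the opposite direction, for the 6 genes with 100 counts in every marrow library and no adipose library, adipose stood at 0.159% of marrow. Tnp1, a spermatid nuclear protein, shows the level in 1 gene. It had 819 CPM in adipose library 10_12, at most 4.84 in the other 4 adipose libraries, and 0.237 to 0.644 in marrow. The leading genes named below were chosen by their fitted differences and for groups that do not overlap in CPM. Many of these differences rest on this level, so the order among the genes has no meaning. The source of the level was not tested.

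The adipose group held 2 libraries that stood apart. Library 25_27 lacked genes that mark the mesothelial covering of visceral fat. Upk3b, a mesothelial membrane protein, had 255, 237, 340 and 175 CPM in the other 4 and 0.805 in 25_27. Wt1, the visceral mesothelial transcription factor, had 98.8, 101, 113 and 87.2 CPM in those 4 and 0.297 in 25_27. Of 14 mesothelial markers, 11 were more than 10 times lower in 25_27 than in any other glutamine adipose library, and 9 were at or under the highest marrow library. Tcf21, a factor of visceral stromal progenitors, stood at 0.297 CPM against 36.8 to 65.2, and Col6a5, a collagen VI chain, at 6.44 against 512 to 881. The same library was high in patterning genes. Tbx15 had 48.8 CPM against 0.0336 to 0.117, Hoxc10 had 59.4 against 2.87 to 5.25, En1 had 58.9 against 2.29 to 5.68, and Shox2 had 110 against 0.239 to 9.07. Mmp3, a matrix protease, had 433 CPM against 12.2 to 40.6. The labels give all 5 adipose libraries the same tissue.

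Library 10_12 carried spermatid genes: beside Tnp1, the protamines Prm1 and Prm2 had 719 and 673 CPM and the sperm protein Crisp2 289, against at most 5.46, 3.63 and 9.21 in the other glutamine adipose libraries. Adipose libraries of the arm without glutamine reached 230 CPM of Tnp1, 224 of Prm1, 109 of Prm2 and 25.2 of Crisp2, so these genes were not particular to 10_12. Over all genes, 92 in 10_12 were more than 10 times the highest other adipose library of the series, against 9 in 25_27. Tnp1, Prm1 and Prm2 are not among the 92. Among marrow libraries the unnumbered one was the thinnest at 1831 genes and 18_20 the fullest at 7323. Counts of genes below are therefore also given for 7 libraries, without adipose 10_12, adipose 25_27 and the unnumbered marrow library, and for most lists with each library left out in turn.

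**Figure D3:**
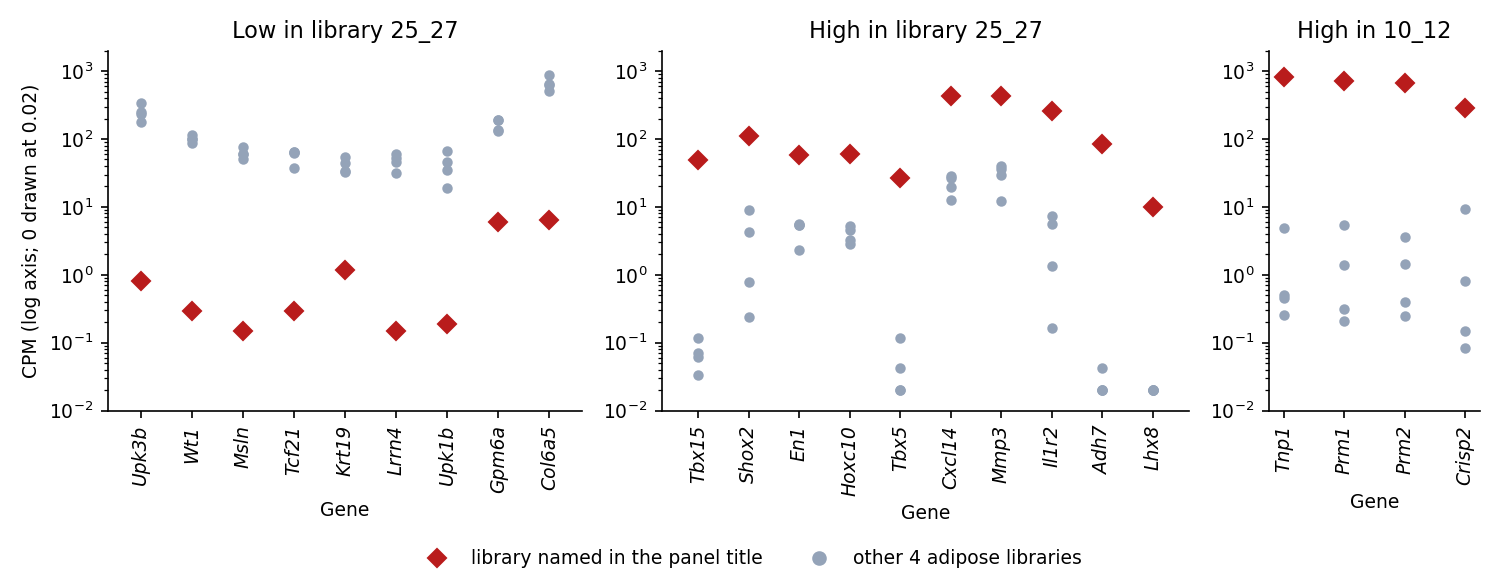
Points are CPM on a log axis in the 5 adipose libraries for genes low in library 25_27 (left), high in it (middle) and high in library 10_12 (right), with the named library as a red diamond and the other 4 in grey. Wt1 stands at 0.297 CPM in 25_27 and at 87.2 to 113 CPM in the other libraries.

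The number and direction of tissue differences depended on the scaling. Each gene was tested with edgeR's quasi-likelihood test and called at a Benjamini-Hochberg adjusted p under 0.05. A log2 difference here is always adipose minus marrow, so a negative value means higher in marrow. With TMM factors, which assume that most genes are level, 2755 of 12458 genes were called higher in adipose (22.1% of genes tested) and 3281 higher in marrow (26.3%), and over all genes the log2 difference had a median of -1.31. With library totals alone, 3939 were called higher in adipose (31.6%) and 198 higher in marrow (1.59%), and that median was 1.12. The TMM factors themselves ran from 3.24 to 3.38 in adipose and from 0.0415 to 1.93 in marrow. Moving from TMM to library totals shifted a gene's log2 difference by a median of 3.06. Relative log expression factors gave 2192 and 5469 calls and upper-quartile factors 2646 and 2009. A gene is therefore called higher in a tissue below only if it passed in that direction under all 4 scalings. This held for 1977 genes in adipose (15.9% of genes tested) and 197 in marrow (1.58%). Leaving out 1 library gave 1239 to 2279 and 110 to 336 genes, and the 7 libraries gave 605 and 109, of which 442 and 92 were among the first. The adipose count was 1273, 1239, 1257 and 1246 without adipose 10_12, 13_15, 18_20 and 25_27. The marrow count was 122, 121, 110, 115 and 119 without adipose 4_6, 10_12, 13_15, 18_20 and 25_27, and 336 without the unnumbered marrow library. limma-voom with quality weights on the same 10 libraries called 2 genes higher in adipose and 419 in marrow, so nearly all adipose calls below are lost with that tool. By levels alone, 4472 genes had every adipose library above every marrow library in CPM (35.9%), and 105 the reverse (0.843%). All such shares are over genes that passed the count filter, and far more genes were well counted in adipose than in marrow. Genes seen in only some marrow libraries could fail it. Nfe2, at 87.5 and 184 CPM in marrow 18_20 and 25_27 and at most 0.117 in adipose, was not tested. The shares of all genes therefore depend partly on the filter.

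Most of the leading genes called higher in marrow belong to bone, cartilage or blood cells. The 14 with the largest fitted differences, given in no order of effect, were Chad, Car1, Ibsp, Col11a1, Bglap, Col11a2, Slc26a7, Ngp, Klf1, Col2a1, Chil3, Car2, Prg4 and Lcn2. They ran from 33.4 to 6895 CPM in marrow and from 0.212 to 31.2 in adipose. Under TMM their log2 differences were -15.24 to -12.13 with an adjusted p of 0.00385 (edgeR quasi-likelihood), and under library totals -10.27 to -6.32. All 14 stayed called under the 4 scalings without any 1 library and in the 7 libraries. For many of them the fold size rests on adipose values near the low level described above. Prg4, Lcn2 and Car2 stood further above it, with marrow means 127, 80.4 and 236 times the adipose means. For the 6 genes that gave the low level in adipose the median was 627.5 times.

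**Figure D4:**
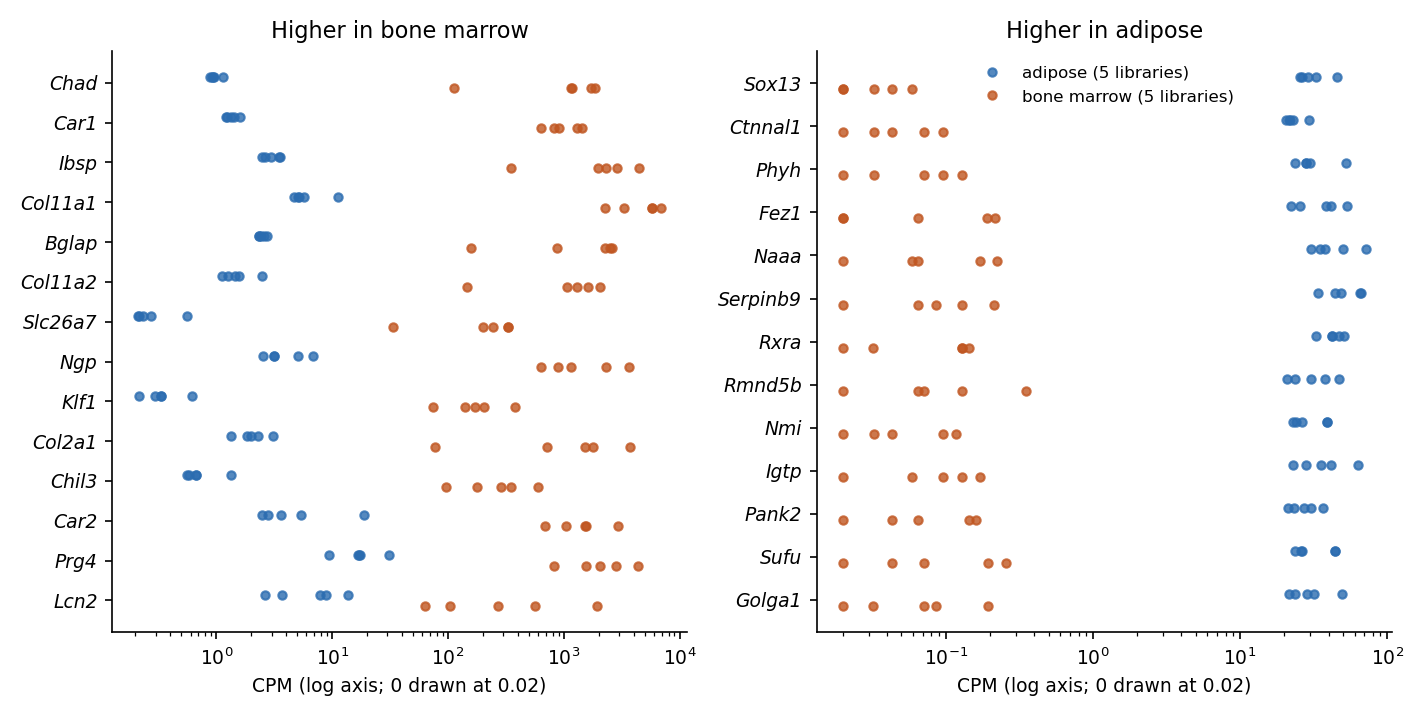
Each point is 1 library's CPM on a log axis for genes with the largest calls higher in bone marrow (left) and in adipose (right), with values of 0 drawn at 0.02. Genes were chosen so that the groups do not overlap, and the adipose-high genes lie at 0 to 0.353 CPM in marrow.

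Chad on chromosome 11 from 94565047 to 94569127 (GRCm38), which encodes the cartilage matrix protein chondroadherin, had 0.930, 0.874, 0.956, 1.14 and 0.911 CPM in adipose and 1697, 1164, 1870, 1158 and 114 in marrow. All 5 marrow libraries were above all adipose libraries, with marrow 25_27 the lowest. The log2 difference was -15.24 ± 2.51 (SE) under TMM (edgeR quasi-likelihood, adjusted p = 0.00385) and -10.27 under library totals. Slc26a7, an anion exchanger, had 0.215, 0.235, 0.273, 0.562 and 0.212 CPM in adipose and 33.4, 330, 202, 244 and 328 in marrow, with marrow 4_6 the lowest of its group.

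Osteoblast and bone matrix genes were higher in marrow. Of 22 genes on this list, 14 had enough counts to test, 9 were called higher in marrow and 0 in adipose against 1.58% of all genes called higher in marrow (6 to 13 with 1 library left out, 10 in the 7 libraries). The list's median log2 difference was -7.89 relative to the median of all genes. Bglap, which encodes the bone hormone osteocalcin, had 2.74, 2.32, 2.42, 2.58 and 2.33 CPM in adipose and 2279, 157, 2512, 2591 and 871 in marrow. Marrow 10_12 was the lowest marrow library, yet above every adipose library. The difference was -14.17 ± 2.42 (SE) under TMM (adjusted p = 0.00385, edgeR quasi-likelihood) and -9.40 under library totals. Its neighbour Bglap2 is a near-identical copy and reads may be split between them. Bglap2 reached 1115 and 687 CPM in marrow 4_6 and 18_20 but 3.58 to 5.45 in the other 3. Ibsp, bone sialoprotein, had 2.62, 2.49, 2.98, 3.52 and 3.45 CPM in adipose and 1988, 4481, 2290, 2863 and 346 in marrow. Spp1, osteopontin, had 1.12, 11.8, 3.74, 6.05 and 3.64 in adipose and 534, 710, 813, 428 and 218 in marrow, with log2 differences of -11.67 ± 2.27 (SE) under TMM (adjusted p = 0.00385, edgeR quasi-likelihood) and -6.67 under library totals. Phex, an osteocyte peptidase of phosphate balance, was called although it exceeded 1 CPM only in marrow 4_6, 18_20 and 25_27, at 30.5, 109 and 172.

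Col1a1 on chromosome 11 from 94936224 to 94953042 had 6960, 8144, 6362, 6873 and 10017 CPM in adipose and 90731, 137741, 133601, 158097 and 61773 in marrow. It was abundant in both tissues, so its difference does not rest on low values, and the groups did not overlap. The log2 difference was -8.60 ± 1.83 (SE) under TMM (adjusted p = 0.00402, edgeR quasi-likelihood) and -3.92 under library totals. Col1a2, its partner chain, had 2838, 5497, 2395, 4865 and 6468 CPM in adipose and 17895, 80763, 26235, 58302 and 23544 in marrow. Genes of the osteoblast programme that were not called varied within marrow. Runx2, the transcription factor that starts it, had 0.172, 223, 319, 345 and 0.293 CPM in marrow and 10.3, 2.99, 2.79, 9.65 and 4.41 in adipose, and Alpl, alkaline phosphatase, 3.57, 871, 178, 173 and 0.260 in marrow and 24.1, 25.7, 49.4, 22.8 and 21.1 in adipose. In both, 3 marrow libraries lay above every adipose library and 2 lay below. Sp7, Dmp1, Mepe and Sost had too few counts to be tested.

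The promoters of 2 called bone matrix genes hold the core motif of RUNX factors, and their sequences are shown. Sequences are from RefSeq (GRCm38.p6), 250 bases before to 50 after the gene start, 5′ to 3′ on the gene's strand, with the motif ACCACA in capitals. The Bglap window is chr3:88384417-88384716 on the minus strand and the Spp1 window chr5:104434861-104435160 on the plus strand.
Bglap: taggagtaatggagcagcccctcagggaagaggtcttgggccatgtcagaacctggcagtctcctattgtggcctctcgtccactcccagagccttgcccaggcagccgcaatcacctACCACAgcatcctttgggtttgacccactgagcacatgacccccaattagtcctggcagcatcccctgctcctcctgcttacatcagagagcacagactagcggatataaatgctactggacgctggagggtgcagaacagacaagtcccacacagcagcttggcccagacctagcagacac
Spp1: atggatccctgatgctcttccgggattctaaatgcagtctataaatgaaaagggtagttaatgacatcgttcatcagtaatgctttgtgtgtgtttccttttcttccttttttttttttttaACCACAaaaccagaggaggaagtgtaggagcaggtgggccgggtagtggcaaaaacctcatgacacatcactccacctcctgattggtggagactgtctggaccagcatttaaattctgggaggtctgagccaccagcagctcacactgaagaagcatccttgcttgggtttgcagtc
The motif began 132 bases before the start in Bglap and 128 in Spp1. Of the 9 called genes, 5 had a promoter in the table, and these 2 held ACCACA or its reverse complement TGTGGT on either strand, 40.0%. Over the whole list, called or not, 6 of 15 promoters held it, also 40.0%, against 18.9% of all 27025 promoters. The promoters of Col1a2, Ibsp and Phex, also called, did not hold the motif. A match describes the letters of the window only, and a part of RUNX factors in these differences was not tested.

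Cartilage matrix genes differed in the same direction. Of 16 present genes of the list, 12 were tested. Calls numbered 10 higher in marrow and 0 in adipose, against 1.58% and 15.9% of all genes. The marrow count was 10 to 12 with 1 library left out and 9 in the 7 libraries. The list's median log2 difference was -11.14 relative to all genes. Col2a1, the chief cartilage collagen, had 1.34, 3.09, 2.30, 2.00 and 1.84 CPM in adipose and 3710, 1535, 712, 1779 and 77.2 in marrow. Acan, the large cartilage proteoglycan, had 0.143, 0.0504, 0.0780, 0.0208 and 0.0212 in adipose and 189, 212, 314, 60.0 and 0.748 in marrow, where library 25_27 was near 0. Col11a1, a minor fibril collagen, had 5.03, 4.72, 5.17, 11.1 and 5.70 in adipose and 6895, 3308, 5799, 5723 and 2258 in marrow. Prg4, the joint lubricant lubricin, had 9.45, 17.0, 17.4, 16.7 and 31.2 in adipose and 2060, 1565, 4390, 821 and 2831 in marrow. Sox9, the master transcription factor of cartilage, was not called: it had 212, 241, 184, 235 and 42.2 CPM in adipose and 61.6, 418, 167, 275 and 235 in marrow, and the groups overlapped. The summed level of the list was 84.5 to 281 CPM in adipose and 5694 to 17299 in marrow, lowest in marrow 25_27.

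Marrow niche genes were called less evenly: 5 of 15 were higher in marrow and 0 in adipose, against 1.58% and 15.9% of all genes. The marrow count was 3 to 6 with 1 library left out and 3 in the 7 libraries. The list's median was -5.00 relative to all genes. Cxcl12 on chromosome 6 from 117168535 to 117181367, the chemokine that retains blood stem cells, had 173, 142, 257, 259 and 503 CPM in adipose and 4023, 4212, 3673, 4340 and 1464 in marrow. Every marrow library exceeded every adipose library, with adipose 25_27 the highest of its group and marrow 25_27 the lowest. The log2 difference was -8.32 ± 1.91 (SE) under TMM (adjusted p = 0.0047, edgeR quasi-likelihood) and -3.73 under library totals. Lepr, the leptin receptor that marks perivascular marrow stroma, had 3.53, 0.319, 1.99, 2.06 and 3.33 in adipose and 273, 36.1, 339, 580 and 38.2 in marrow, a log2 difference of -11.41 ± 2.28 (SE) under TMM (adjusted p = 0.00385, edgeR quasi-likelihood) and -6.81 under library totals. Ebf3, a transcription factor of the same cells, had 14.5, 19.2, 28.0, 21.2 and 65.0 in adipose and 183, 296, 368, 468 and 185 in marrow. Adipoq, the hormone adiponectin, was called higher in marrow. It had 271, 681, 146, 401 and 1.37 CPM there and 20.3, 58.7, 17.2, 18.0 and 9.85 in adipose, and marrow 25_27 was the lowest of all 10 libraries. Grem1, a BMP antagonist, was the remaining call. Kitl, Vcam1, Foxc1, Igfbp4 and Igfbp5 overlapped between tissues and were not called. Kitl, the stem cell factor, had 409, 298, 2.31, 519 and 24.5 CPM in marrow and 76.1, 77.5, 114, 126 and 120 in adipose.

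Surface markers used to describe mesenchymal stromal cells were read more evenly in adipose. Of 13 tested, 1 was called higher in adipose and 0 in marrow (0 to 2 and 0 with 1 library left out, 0 in the 7 libraries), under the 15.9% of all genes called higher in adipose. Ly6a, or Sca-1, had 1097, 1195, 1300, 1164 and 1593 CPM in adipose and 457, 9.66, 5.27, 4.68 and 35.5 in marrow. Thy1 had 255, 184, 185, 196 and 171 in adipose and 0.818, 1.72, 1.07, 0.866 and 43.9 in marrow, and Nt5e had 20.8, 33.9, 13.5, 13.9 and 15.4 in adipose and 0.301, 0.787, 0.415, 2.85 and 0.228 in marrow. For these 3 genes every adipose library lay above every marrow library, but none passed under TMM. Pdgfra, a receptor of stromal progenitors, had 270, 288, 224, 350 and 325 in adipose and 375, 116, 2.13, 21.1 and 1.95 in marrow, with overlap. Itgb1, an integrin chain, had 629, 583, 613, 601 and 543 in adipose and 73.0, 312, 727, 409 and 1340 in marrow.

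Neutrophil and erythroid genes were high in the marrow libraries beside the stromal ones. Of 9 B and plasma cell genes, 3 were called higher in adipose (1 to 3 with 1 library left out). Of 4 megakaryocyte and platelet genes, 2 were (0 to 2), Pf4 and Gp1bb. Pf4 also sits on the macrophage list and is counted there too. Neither the B and plasma cell list nor the megakaryocyte list had a marrow call, or any call in the 7 libraries. Over all genes, 15.9% were called higher in adipose and 1.58% in marrow. The megakaryocyte list summed to 157 and 185 CPM in marrow 18_20 and 25_27, above every adipose library, and to 0.652 to 33.7 in the other marrow libraries. Of 13 neutrophil granule genes tested, 12 were called higher in marrow and 0 in adipose (12 to 13 with 1 library left out, 11 in the 7 libraries), with a median of -10.82 relative to all genes. Their summed level was 3147 to 27611 CPM in marrow and 61.0 to 167 in adipose. S100a8, a calcium-binding protein of neutrophils, had 55.3, 37.9, 29.6, 24.5 and 23.3 CPM in adipose and 2599, 1329, 7739, 3202 and 7950 in marrow, a log2 difference of -12.06 ± 2.25 (SE) under TMM (adjusted p = 0.00385, edgeR quasi-likelihood) and -7.06 under library totals. Ngp, a neutrophil granule protein, had 3.15, 5.09, 3.12, 2.54 and 6.86 in adipose and 1156, 629, 3633, 895 and 2322 in marrow. Mpo, myeloperoxidase, was called although 1 marrow library, 10_12, had 4.44 CPM and adipose 4_6 had 8.94. In bulk RNA, more cells of a type and more RNA per cell cannot be told apart, and the part of these cells in the bone and cartilage differences was not tested.

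Erythroid genes were called in part. Of 16 tested, 9 were called higher in marrow and 0 in adipose, against 1.58% and 15.9% of all genes. The marrow count was 9 with any 1 library left out and 7 in the 7 libraries. Klf1, the erythroid transcription factor, had 0.334, 0.622, 0.215, 0.333 and 0.297 CPM in adipose and 74.4, 141, 206, 172 and 375 in marrow. Car1, a red cell carbonic anhydrase, had 1.22, 1.23, 1.33, 1.41 and 1.59 in adipose and 908, 821, 1439, 631 and 1293 in marrow, and Ermap, an erythroid membrane protein, 0.549, 0.470, 0.410, 0.790 and 1.10 in adipose and 289, 14.2, 385, 425 and 615 in marrow. The globins, which mature red cells carry into any tissue, overlapped. Hbb-bs had 5426, 5951, 1449, 1349 and 2699 CPM in adipose and 3670, 2447, 5076, 4190 and 3162 in marrow. Its call failed under upper-quartile factors and under library totals. Globin copies are close in sequence and their reads may be split.

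Genes of cell division were called higher in marrow in 10 of 27 tested and in adipose in 0, against 1.58% and 15.9% of all genes. The marrow count was 4 to 18 with 1 library left out and 8 in the 7 libraries. The list's median was -5.47 relative to all genes. Mki67, the proliferation antigen, had 32.8, 20.9, 30.7, 39.3 and 5.25 CPM in adipose and 487, 560, 1213, 411 and 1113 in marrow. Top2a, the topoisomerase of dividing cells, had 52.4, 27.6, 66.8, 70.7 and 22.2 in adipose and 1109, 755, 578, 664 and 775 in marrow. Both separated the tissues in all 10 libraries. Pcna, the replication clamp, did not: marrow had 402, 2.65, 1.07, 356 and 339 CPM and adipose 52.1, 71.4, 37.3, 43.9 and 51.4. Of 8 mitochondrially encoded genes tested, 2 were called higher in marrow, mt-Nd4 and mt-Rnr2, and 0 in adipose, against those shares of all genes. The marrow count was 2 to 5 with 1 library left out and 1 in the 7 libraries. mt-Nd4, a complex I subunit, had 32.3, 45.8, 29.5, 27.3 and 26.7 in adipose and 184, 671, 706, 150 and 84.3 in marrow.

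The leading genes called higher in adipose were of mixed function and near 0 in marrow. Among the 14 with the largest fitted differences, in no order of effect, were Sox13, Ctnnal1, Phyh, Fez1, Naaa, Serpinb9, Rxra, Rmnd5b, Nmi, Igtp, Pank2, Sufu and Golga1. They had 20.5 to 71.3 CPM in adipose and 0 to 0.353 in marrow. Sox13, a SoxD transcription factor on chromosome 1 from 133382303 to 133424377, had 32.8, 45.5, 29.1, 25.5 and 26.3 CPM in adipose and 0.0430, 0, 0.0592, 0 and 0.0325 in marrow. The log2 difference was 6.76 ± 1.61 (SE) under TMM (adjusted p = 0.00549, edgeR quasi-likelihood) and 10.05 under library totals. Rxra, the retinoid receptor that pairs with PPAR gamma, had 42.0, 42.3, 51.2, 33.0 and 47.0 in adipose and 0.129, 0.143, 0, 0.0321 and 0.130 in marrow. Sufu, an inhibitor of Hedgehog signalling, had 44.3, 44.3, 26.3, 25.9 and 23.7 in adipose and 0.0430, 0.0716, 0, 0.256 and 0.195 in marrow. Naaa is a lysosomal hydrolase, Nmi and Igtp are interferon-induced, and Phyh is a peroxisomal fatty acid enzyme. All 14 stayed called without any 1 library, but 3 of 14 in the 7 libraries and 0 of 14 with limma-voom. Under library totals the log2 differences were 7.94 to 10.05. In marrow these genes had fewer than 100 counts in every library, and genes of their adipose level were often below that count, as described above.

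Adipose progenitor genes separated by level more than by the test. Of 19 tested, 1 was called higher in adipose under the 4 scalings and 0 in marrow, while 11 were called higher in adipose under library totals (31.6% of all genes) and 14 had no overlap (35.9% of all genes). With 1 library left out the first count was 1 to 2, and in the 7 libraries 0. Zfp423, a factor that commits cells to the fat lineage, was that gene. It had 14.7, 25.8, 21.3, 31.9 and 41.4 CPM in adipose and 0.129, 0.0716, 0, 0.0641 and 0.0650 in marrow, a log2 difference of 5.59 ± 1.28 (SE) under TMM (adjusted p = 0.00471, edgeR quasi-likelihood) and 8.59 under library totals. Pi16, a marker of early progenitors, had 469, 355, 432, 297 and 1165 in adipose and 1.72, 3.08, 2.55, 1.92 and 2.11 in marrow, and Dpp4, of the same cells, 106, 124, 70.0, 94.1 and 223 in adipose and 0.387, 1.07, 0.711, 0.385 and 0.358 in marrow. Cd34 had 1121, 851, 1210, 1032 and 1108 in adipose and 4.05, 6.59, 3.97, 4.17 and 3.68 in marrow. These 3 passed under library totals, at log2 differences of 7.90, 7.73 and 7.89, and not under TMM. Pi16 and Dpp4 were highest in adipose 25_27.

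Adipocyte genes went both ways. Of 18 tested, 5 were called higher in adipose and 2 in marrow against 15.9% and 1.58% of all genes (1 to 4 and 0 to 2 with 1 library left out, 0 and 0 in the 7 libraries). The adipose calls were Plin1, Plin4 and Cidec, which coat lipid droplets, Lipe, hormone-sensitive lipase, and Fasn, fatty acid synthase. Fasn had 80.0, 74.3, 100, 70.6 and 69.5 CPM in adipose and 0.344, 0.358, 0.237, 0.417 and 0.195 in marrow. The marrow calls were Adipoq and Car3, which also sit on the niche and osteoblast lists. Fabp4, the fatty acid binder of adipocytes and vessels, had 628, 1285, 1105, 1735 and 1806 in adipose and 5.38, 9.74, 559, 17.9 and 4.68 in marrow, without overlap. Pparg, the master factor of adipocytes, had 8.90, 4.87, 7.55, 9.24 and 12.7 in adipose and 0.129, 0.0716, 0.0592, 0.128 and 0.0650 in marrow, also without overlap, and neither was called under the 4 scalings.

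On the mesothelial, endothelial, mural, macrophage, T and NK cell, and mast cell lists genes were called higher in adipose and 0 in marrow, where 15.9% and 1.58% of all genes were called. At so small a marrow share, the lack of marrow calls on short lists is not a result. The list of lipid-associated macrophages had 1 call in each direction. For the mesothelial list 3 of 8 tested were called, 4 without library 25_27, 2 in the 7 libraries and 0 without any 1 of adipose 4_6, 10_12, 13_15 and 18_20. The calls were Krt19, Gpm6a and Cldn15. Cldn15, a tight junction protein, had 38.7, 44.6, 86.8, 80.0 and 67.8 CPM in adipose, where 25_27 was not low, and 0.129, 0.0716, 0.355, 0.321 and 0.423 in marrow. Upk3b, Wt1 and Msln overlapped because of library 25_27. Of 16 endothelial genes, 6 were called (1 to 8 with 1 library left out, lowest without adipose 13_15 or 25_27, and 0 in the 7 libraries). Cdh5, the endothelial cadherin, had 98.9, 122, 239, 195 and 205 in adipose and 0.603, 0.787, 0.652, 0.705 and 0.683 in marrow, and Tek, the angiopoietin receptor, 129, 105, 146, 120 and 166 in adipose and 0.258, 0.430, 0.415, 0.545 and 0.130 in marrow. Pecam1 was at 251 CPM in marrow 10_12 and under 1 in the other 4, and was not called.

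Of 12 mural genes, 4 were called higher in adipose (1 to 5 with 1 library left out, lowest without adipose 10_12, 13_15 or 18_20), among them Acta2, smooth muscle actin, with 122, 181, 218, 129 and 153 CPM in adipose and 0.430, 0.716, 0.652, 2.37 and 0.488 in marrow. Of 15 macrophage genes 4 were called (2 to 6 with 1 library left out, lowest without adipose 10_12 or 25_27), against 15.9% of all genes. Adgre1, the F4/80 antigen, had 18.2, 11.6, 13.8, 10.7 and 7.01 in adipose and 0, 0.143, 0, 0.0321 and 0.0325 in marrow, and Folr2, of tissue-resident macrophages, 14.1, 14.3, 8.11, 9.34 and 11.3 in adipose and 0.0430, 0, 0.0592, 0.0962 and 0.0650 in marrow. Lyz2, lysozyme of all myeloid cells, overlapped, at 106 to 382 CPM in adipose and 223 to 1606 in marrow. Of 7 T and NK cell genes, 4 were called (1 to 4 with 1 library left out), and of 7 mast cell, basophil and eosinophil genes, 4 (2 to 5). Cpa3, a mast cell protease, had 19.5, 15.8, 6.65, 18.1 and 33.4 in adipose and 0.0861, 0.0716, 0.0592, 0.192 and 0.0650 in marrow. In the 7 libraries these 4 lists gave 0, 0, 0 and 1 calls.

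Hox genes, which record position along the body axis, were called higher in adipose in 11 of 24 tested and in marrow in 0 against 15.9% and 1.58% of all genes (4 to 12 with 1 library left out, lowest without adipose 18_20, 6 without adipose 25_27, 2 in the 7 libraries), with a median of 4.51 relative to all genes. Hoxb5 had 33.5, 27.0, 34.7, 52.0 and 31.6 CPM in adipose and 0.0861, 0.358, 0.0592, 0.128 and 0.130 in marrow. Hoxc8 had 129, 96.2, 95.5, 132 and 96.5 in adipose and 0.474, 0.859, 0.474, 5.51 and 0.455 in marrow. Some Hox genes were high in single marrow libraries and near 0 in the rest. Hoxa9 had 0.0430, 0.215, 599, 19.7 and 0.455 CPM in marrow, Hoxa10 533, 1.22, 0.533, 18.6 and 1.20, and Hoxc9 0.0861, 320, 78.7, 0.321 and 0.293. None of these 3 was called.

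Collagen chains were called in both directions. Of 21 tested, 4 were called higher in marrow, Col1a1, Col1a2, Col22a1 and Col24a1. Calls higher in adipose numbered 2, Col18a1 and Col28a1, where 1.58% and 15.9% of all genes were called higher in marrow and in adipose. The cartilage collagens Col2a1, Col11a1 and Col11a2, also called higher in marrow, were counted on the cartilage list and not on this one. With 1 library left out the counts were 2 to 5 and 0 to 2, the marrow count lowest without any 1 adipose library and the adipose count 0 without adipose 10_12, 13_15 or 18_20 or marrow 25_27. In the 7 libraries they were 4 and 1. Col3a1, the reticular fibre chain, had 11333, 11102, 9410, 12041 and 14803 CPM in adipose and 701, 546, 1875, 155 and 877 in marrow, and Col4a1, of basement membranes, 1876, 1689, 2249, 2182 and 2363 in adipose and 6.80, 43.9, 9.89, 161 and 177 in marrow. Both passed under library totals, at 3.83 and 4.70 (adjusted p = 9.66e-05 and 0.000838, edgeR quasi-likelihood), but not under TMM, where Col3a1 took the opposite sign at -1.56 ± 1.50 (SE). Col18a1, which carries the endostatin fragment, had 212, 120, 181, 144 and 107 in adipose and 0.732, 0.859, 0.474, 0.513 and 0.488 in marrow. Col5a2 separated the tissues in the other direction, at 503, 638, 487, 654 and 782 in adipose and 960, 1044, 854, 1324 and 1125 in marrow, without passing under library totals.

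Both groups received glutamine, and enzymes of glutamine and glutamate metabolism were read as a list. In CPM, every adipose library lay above every marrow library for 6 of 19 tested (35.9% of all genes). The reverse held for 0 (0.843% of all genes). Of 19 tested, 2 were called higher in adipose and 1 in marrow (2 to 3 and 0 to 4 with 1 library left out, 1 and 0 in the 7 libraries), against 15.9% and 1.58% of all genes, so these counts do not set the list apart. Got1, the cytosolic aspartate transaminase, had 91.3, 59.2, 30.0, 67.1 and 44.0 CPM in adipose and 0.129, 0.215, 0.0592, 0.289 and 0.0976 in marrow, a log2 difference of 5.09 ± 1.32 (SE) under TMM (adjusted p = 0.00839, edgeR quasi-likelihood) and 8.50 under library totals. Gpt2, a mitochondrial alanine transaminase, had 8.63, 16.7, 11.2, 9.73 and 5.34 in adipose and 0.0430, 0.0716, 0, 0.0321 and 0 in marrow. Ppat, the first enzyme of purine synthesis, was called higher in marrow although 2 marrow libraries were under 1 CPM: it had 0.344, 167, 0.592, 60.4 and 744 there and 5.27, 9.54, 2.65, 4.66 and 8.73 in adipose. Glul, glutamine synthetase, had 666, 606, 515, 500 and 448 in adipose and 1.59, 2.15, 8.59, 265 and 17.1 in marrow, with no overlap and no call. Of 16 amino acid transporters, 1 was called higher in adipose, the glutamate carrier Slc1a1, under the 15.9% of all genes. That count was 0 to 2 with 1 library left out and 0 in the 7 libraries. The glutamine carrier Slc1a5 had 346, 386, 270, 271 and 501 in adipose and 2.02, 88.9, 224, 75.1 and 1.20 in marrow, and Slc38a2 629, 590, 562, 518 and 715 in adipose and 226, 1228, 4.27, 278 and 327 in marrow.

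**Figure D5:**
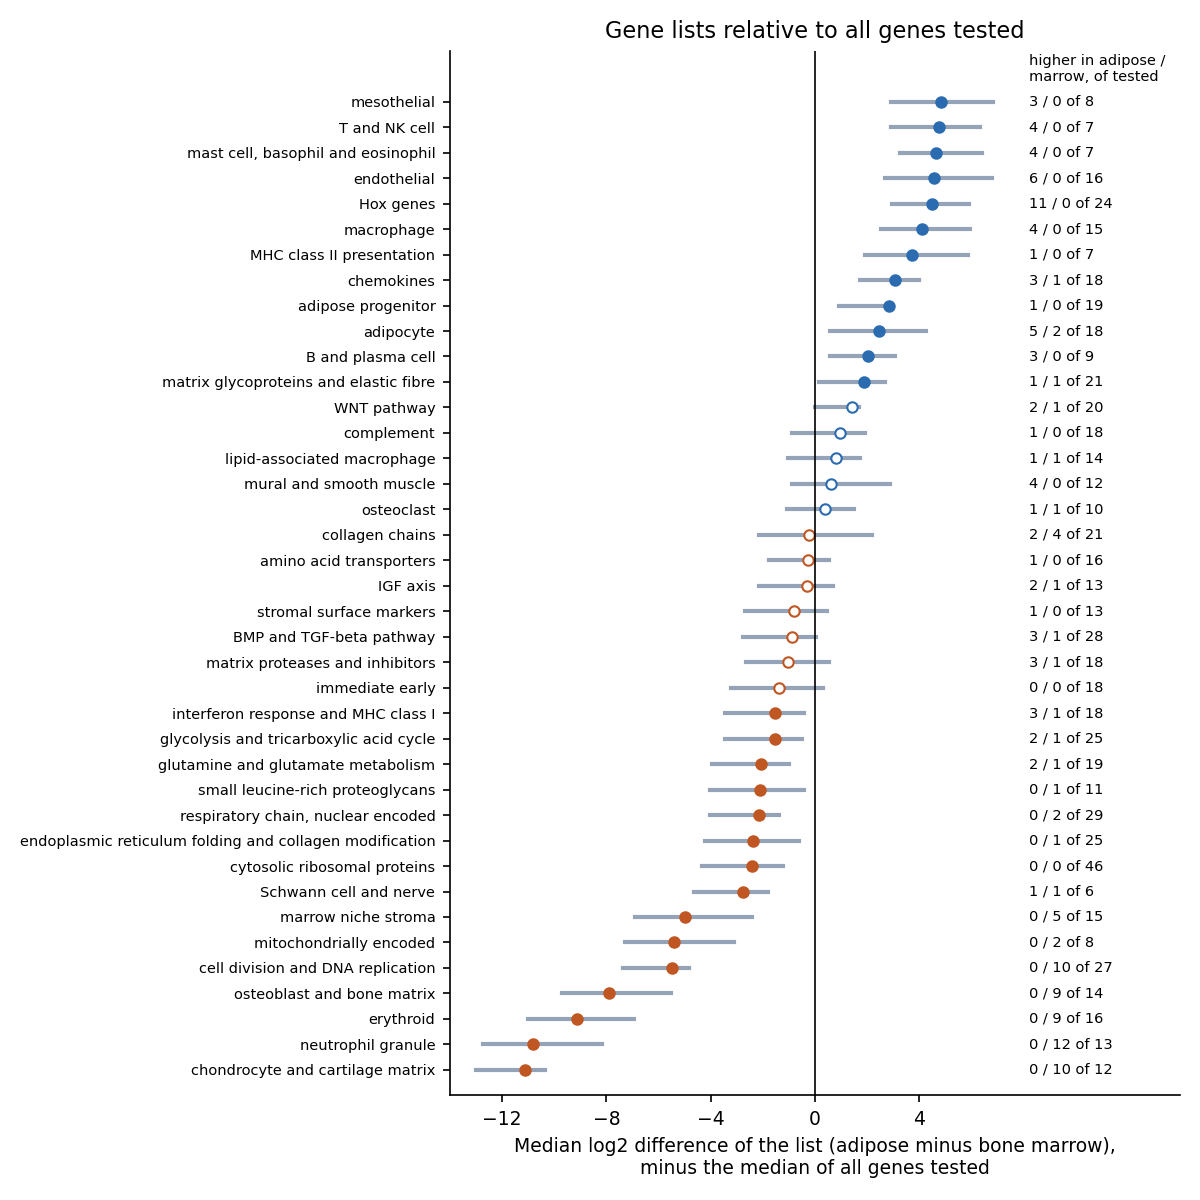
Points give, for the 39 lists with more than 4 genes tested, the list's median log2 difference under TMM minus the median of all genes tested, grey lines its range over 13 settings, and open points lists whose sign changed among them. The numbers at the right are members called higher in adipose and in marrow under 4 scalings, of those tested, with chondrocyte genes lowest at -11.14 and mesothelial genes highest at 4.84.

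The 8 libraries of the arm without glutamine gave a separate reading of the same tissues. There 4788 of 11267 genes were called higher in adipose under library totals (42.5%) and 108 higher in marrow (0.959%). Of the 197 genes called higher in marrow in the glutamine arm, 178 could be tested and 162 had the same direction under library totals. Under those totals 69 were called in it and 6 were called in the opposite one. For these marrow genes TMM gave 118 calls in the same direction and 3 in the opposite one. Relative log expression factors gave 167 and upper-quartile factors 24 in the same direction, with 0 opposite under either. Of the 1977 adipose genes 1357 could be tested, 1284 had the same direction and 1138 were called under library totals. Under TMM 1115 were called, under upper-quartile factors 11, and under relative log expression factors 475, with 44 called in the opposite direction. All 14 leading marrow genes were called in the same direction there under library totals and under TMM, and of the 14 leading adipose genes 12 were. Upper-quartile factors gave fewer calls in that arm, 2 of the 14 marrow genes and 0 of the 14 adipose genes, with the direction the same in all 28. For the 14 adipose genes the direction was the same in 12 under TMM and in 11 under relative log expression factors, where 3 were called.

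Whether the tissue difference itself differed between arms depended on the scaling. Under TMM 1811 of 15203 genes were called in either direction (11.9%, edgeR quasi-likelihood). Under relative log expression and under upper-quartile factors 0 were called, with 4244 and 3958 genes at an unadjusted p under 0.05, while DESeq2 called 1061. Under TMM the count also fell to 0 without any 1 adipose library of either arm or without marrow library 23_28 of the other arm. It was 442, 466 and 399 without marrow libraries 1_3, 5_11 and 14_17 of that arm. No gene is therefore described as particular to the glutamine arm.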

How the data were processed

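Per the labels' protocols, a 3′ end kit primed at the poly(A) tail made each library out of 30 ng RNA, and only read 1 was used. The deposited values are raw counts of reads for each gene. The submitters' processing notes name STAR 2.7.10b, HTSeq 0.11.3, FastQC 0.12.1 and GRCm38. The authors' strand setting, duplicate handling and annotation were not given in the sources used here, so overlapping and antisense genes cannot be told apart and repeated reads of 1 molecule are not removed. Of 46983 gene names, 40115 matched GENCODE M21 directly, 4029 after restoring altered characters and 2839 did not match. Positions are 1-based on GRCm38.

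Groups follow the tissue and treatment labels. Genes were filtered with filterByExpr and tested with edgeR 4.0.16 (R 4.3.3), two-sided quasi-likelihood F test, TMM factors, Benjamini-Hochberg adjustment over all genes tested. The 10 glutamine libraries, the 8 others and all 18 (for the difference between arms) were fitted separately. SE is the absolute log2 difference divided by the square root of F, and fitted differences of genes near 0 depend on the prior count. CPM is per library total. Thinning drew each library to the shallowest total. The tests were tried on simulated counts. Named genes were up to 14 per direction with the largest TMM difference among genes called under 4 scalings, without overlap and with at least 20 CPM in every library of the higher tissue, plus up to 4 leading members of each list and a fixed panel of 20 genes. Some genes chosen by this rule are not reported here. Further list members and the genes of the adipose libraries that stand apart were chosen after their values were seen. The members and the 42 lists were chosen with earlier results of these data known. Alternatives were other scalings, filters, thinning, DESeq2 1.42.0, limma-voom (limma 3.58.1), a block on the number pair and leaving out each library. The 4-scaling leave-one-outs, the 7 libraries, factors from 542 genes and the unblocked fit of the libraries numbered in both tissues were added after the data were seen.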

Additional observations from a re-analysis of the deposited data

Results flagged for a closer look

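In each group of 5 libraries the highest and lowest values were compared with the rest by Dixon's criterion, over 62 groups: the library measures and the 28 leading genes in both tissues. Chance alone marks about 1 group in 20, and 8 were marked here, 7 in adipose and 1 in marrow.

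Among adipose libraries, 10_12 had 14469 genes with at least 100 counts against 12989 in the next. Single adipose libraries also lay apart for Ctnnal1 at 29.3 CPM against 22.9 in the next, for Phyh at 52.5 against 29.9, for Col11a1 at 11.1 against 5.70 and for Slc26a7 at 0.562 against 0.273. The same held for Chil3 at 1.33 against 0.668 and for Car2 at 18.6 against 5.34. The library was 10_12 for Ctnnal1 and Car2, 4_6 for Phyh, 18_20 for Col11a1 and Slc26a7, and 25_27 for Chil3. In marrow, the unnumbered library had 1943 CPM of Lcn2 against 567 in the next. The leading genes were chosen for groups that do not overlap, so the separation of the tissues in these genes follows from that rule.

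Golga1, a Golgi coiled-coil protein, had a tissue difference larger by 6.41 on the log2 scale in the glutamine arm than in the other arm (edgeR quasi-likelihood, adjusted p = 0.0490). No gene kept such a call under relative log expression or upper-quartile factors. In the other arm Golga1 reached 100 counts in 1 marrow library, at 17.0 CPM, where the marrow median was 0.061 CPM. Its larger difference thus rests on that library.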

How the results depend on the processing

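Over 55 genes named by rule and 23 settings, 1220 tissue differences kept direction and call, 44 kept direction and lost the call, and 0 changed sign. All 55 were included because they were called under TMM, relative log expression, upper-quartile and library-total scaling alike. Keeping the call under those scalings was therefore fixed in advance and is not a test. The remaining settings reused libraries from which these genes were chosen. Of the 44 losses, 23 came with limma-voom, which were all 23 genes higher in adipose among the 55, 7 with the 7 libraries and 6 with the block. Of 39 lists, 27 kept the sign of their median relative to all genes in 13 settings. With all libraries thinned to the shallowest total, marrow still had 6385 fewer genes at 100 counts than adipose.

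For the glutamine arm 6036 genes were called. limma-voom gave 421, of which 2 were higher in adipose, the 7 libraries 3152 and leaving out 1 library 4337 to 7890. The difference in genes at 100 or more counts per library was 8719.9 to 10092.9 and in the top-10 share -14.2 to -10.4 with 1 library left out. For the genes under 4 scalings the counts were 1239 to 2279 in adipose and 110 to 336 in marrow with 1 library left out, and 605 and 109 in the 7. In the other arm 5132 genes were called, 112 with upper-quartile factors, 593 without a count filter, 2836 with limma-voom, and 4691 to 6688 with 1 library left out. For the difference between arms, 1811 genes became 0 with relative log expression and with upper-quartile factors, 1061 with DESeq2 and 3 with limma-voom. They became 2151 with library totals and 0 to 2681 with 1 library left out. The causes were not tested.

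With the number pair as a replicate block, 3210 genes were called in the glutamine arm and 0 for the difference between arms. The same libraries without the block gave 5143 and 0. In the glutamine arm the block changed the calls higher in marrow from 1753 to 186. Calls higher in adipose changed from 3390 to 3024. Same-numbered libraries of the 2 tissues correlated in their deviations from the group means at -0.035 to 0.029, and 1 of 4 correlated best with its own number. The tissues differ and marrow libraries resembled each other little, so these correlations cannot decide whether the numbers pair samples. The main fits did not pair them.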
